A study of Mus musculus with 4 samples.

Results

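The cytosolic ribosomal protein genes were taken as the rows of the expression table whose symbol is Rpl or Rps followed by digits, together with Rplp0, Rplp1, Rplp2 and Rpsa, leaving out the Rps6k kinases, Rpl10 and Rpl10l. The rule found 93 of 24388 symbols. They were split by symbol into 76 general genes, 45 of the large and 31 of the small subunit, 8 named paralogues and 9 remaining rows (pseudogene and retrocopy rows and Rps19bp1, which is a binding partner of Rps19 and not a ribosomal protein). RNA sequencing of polyadenylated RNA compared 2 Np95 knockout libraries with 2 control libraries, all from C57BL/6 mouse testes with an age label of 21 dpc, an abbreviation that the labels leave unexplained. Np95, gene symbol Uhrf1, directs the maintenance methyltransferase to newly replicated DNA. The column headers abbreviate the knockout as cKO, and the labels name no allele, Cre driver or number of animals. Tubules were digested with accutase and strained without a described sort, so the spermatocyte suspensions can hold other testis cells.

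Ribosomes are assembled in the nucleolus from ribosomal RNA made by RNA polymerase I and from ribosomal proteins that are made in the cytoplasm and imported. In most tissues each protein is supplied by 1 general gene, and most of these mRNAs start with a pyrimidine tract that couples their translation to mTOR signalling. A few general genes lie on the X chromosome, which is silenced in pachytene spermatocytes, and several have autosomal paralogues that are active in the male germ line. Ribosomal protein genes also have many processed pseudogenes, so short reads from them are hard to place.

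Of 7 pairs of paralogue and general gene, the ratio of Rpl39l to Rpl39 differed most between the groups, with 1 RPKM added. Rpl39l is the germ cell paralogue of a small protein that lines the exit tunnel of the large subunit. Rpl39 is its X-linked general gene. The knockout minus control difference in log2 ratio was -2.26, against -1.60 for Rpl36al and Rpl36a. With 0.1 RPKM added these were -2.61 and -2.49, so the size of the lead depended on the constant added. The coding sequences of Rpl39l and Rpl39 are shown because no stretch of read length is identical in both. They come from GENCODE M21 (GRCm38), from the plus strand of chromosome 16 for Rpl39l (chr16:10174310-10174465, 1 exon) and from the minus strand of chromosome X for Rpl39 (chrX:37082701-37085127, introns removed). Capitals mark the bases at which the 2 sequences differ.
Rpl39l: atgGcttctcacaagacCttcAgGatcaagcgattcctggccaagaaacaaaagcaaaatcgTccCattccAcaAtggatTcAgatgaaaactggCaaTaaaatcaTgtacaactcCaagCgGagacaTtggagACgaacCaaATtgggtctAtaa
Rpl39: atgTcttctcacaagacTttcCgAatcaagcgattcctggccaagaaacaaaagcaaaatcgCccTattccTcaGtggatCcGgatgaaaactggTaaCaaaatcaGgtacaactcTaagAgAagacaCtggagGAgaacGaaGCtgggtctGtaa
Each is 156 bases long, and they differ at 23 positions (85.3% identity). None of the 107 windows of 50 bases, the read length, in the Rpl39l coding sequence occurs in that of Rpl39. Over its whole transcript Rpl39l shared 0.0% of its 50-base windows with any other gene's annotated transcript, and Rpl39 shared 16.2%, mostly with pseudogenes. The search was for exact matches, so where reads with mismatches were placed was not tested.

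Rpl39l was lower and Rpl39 higher in the knockout. Rpl39l had 20.98 and 15.25 RPKM in knockout replicates 1 and 2, against 55.8 and 57.3 RPKM in control replicates 1 and 2. Both knockout libraries lay below both control libraries, by 3.12-fold in the means (log2 fold change -1.61, SE 0.17, limma adjusted p = 0.0015). RPKM scales reads by gene length and by the reads of the library, and every log2 fold change is the knockout minus the control on log2(RPKM + 1), which understates the change of low genes. Rpl39 had 2.70 and 2.56 RPKM in the knockout libraries, against 1.22 and 1.39 RPKM in the control libraries, 2.01-fold higher (log2 fold change 0.65, SE 0.08, limma adjusted p = 0.0018). The log2 ratio of Rpl39l to Rpl39 within a library, from RPKM + 1, was 2.57 and 2.19 in the knockout, against 4.68 and 4.61 in the control. The groups stood apart, with a difference of -2.26, and the exact two-sided permutation p of 0.333 (0.389 adjusted over the 7 pairs) is the smallest that 2 against 2 libraries can give.

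Levels of different genes can be compared only after rescaling, since the deposited RPKM appear to divide by the whole gene span, introns included. This was read from the steps between low values, since no annotation is named. Per kilobase of the annotated transcript, Rpl39l stood at an estimated 122.9 and 89.3 in the knockout and 326.8 and 335.6 in the control. On the same scale Rpl39 stood at 11.9 and 11.3 in the knockout and 5.40 and 6.16 in the control. The paralogue was thus the higher of the pair in all 4 libraries. The gene spans used here are those of a later genome build than the authors', so these levels are estimates.

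Both other X-linked genes among the 76 general genes taken by the rule were also higher in the knockout. Rps4x, a small subunit protein, had 2.30 and 2.83 RPKM in the knockout, against 0.808 and 0.723 RPKM in the control, 3.35-fold higher (log2 fold change 1.01, SE 0.10, limma adjusted p = 0.0014). Since both control libraries were below 1 RPKM, Rps4x passed the filter of 1 RPKM in at least 2 libraries through the knockout libraries only. Rpl36a, a large subunit protein near the exit site for transfer RNA, had 0.995 and 1.55 RPKM in the knockout, against 0.285 and 0.389 RPKM in the control. It missed the filter, and in a fit without the filter its log2 fold change was 0.76 (SE 0.15, limma adjusted p = 0.023), where 34.8% of 21208 genes were called higher. Its control values correspond to only about 4 and 12 read steps, and its knockout values to about 27 and 18. Rpl39 and Rps4x were the X-linked general genes that were tested, and 94.8% of 249 X-linked genes tested were called higher. Of these 249, 113 were below 1 RPKM in both control libraries, as Rps4x was, and none in both knockout libraries, so the filter let them in through the knockout alone and the share is no independent measure. Rps4x and Rpl36a shared 72.2% and 85.5% of their 50-base windows with other annotated genes, so part of their reads could be placed elsewhere.

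Of the autosomal copies of these genes, Rpl36al fell and Rps4l was not called. Rpl36al, the chromosome 12 copy of Rpl36a, had 37.1 and 31.5 RPKM in the knockout, against 58.4 and 65.8 RPKM in the control, 1.81-fold lower (log2 fold change -0.84, SE 0.13, limma adjusted p = 0.0037). The call ended with quantile normalization (adjusted p = 0.11). The coding sequences of Rpl36al and Rpl36a differ at 39 of 321 positions and share 0 of 272 windows of 50 bases. Rps4l, the chromosome 6 copy of Rps4x that RefSeq lists as a transcribed pseudogene, had 176.1 and 172.7 RPKM in the knockout, against 202.7 and 227.4 RPKM in the control. Its knockout libraries lay below the control libraries, but its log2 fold change of -0.30 (SE 0.14) was not called (limma adjusted p = 0.10). Its direction depended on the scaling, since it was called higher with quantile normalization (0.63, adjusted p = 0.0064) and lower with an equal median (-0.56, adjusted p = 0.017), and stood at 0.12 with an equal RPKM sum. It was also called lower without knockout replicate 1 (adjusted p = 0.044) and by limma without the trend (0.032). The difference in log2 ratio of paralogue to general gene was -1.60 for Rpl36al and Rpl36a and -1.31 for Rps4l and Rps4x. The groups stood apart for both (exact two-sided permutation p = 0.333 each, the smallest possible, and 0.389 adjusted over the 7 pairs). With quantile normalization the difference shrank to -0.71 for Rpl36al and Rpl36a and to -0.11 for Rps4l and Rps4x, where the groups overlapped (p = 0.667, exact permutation test).

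**Figure D1:**
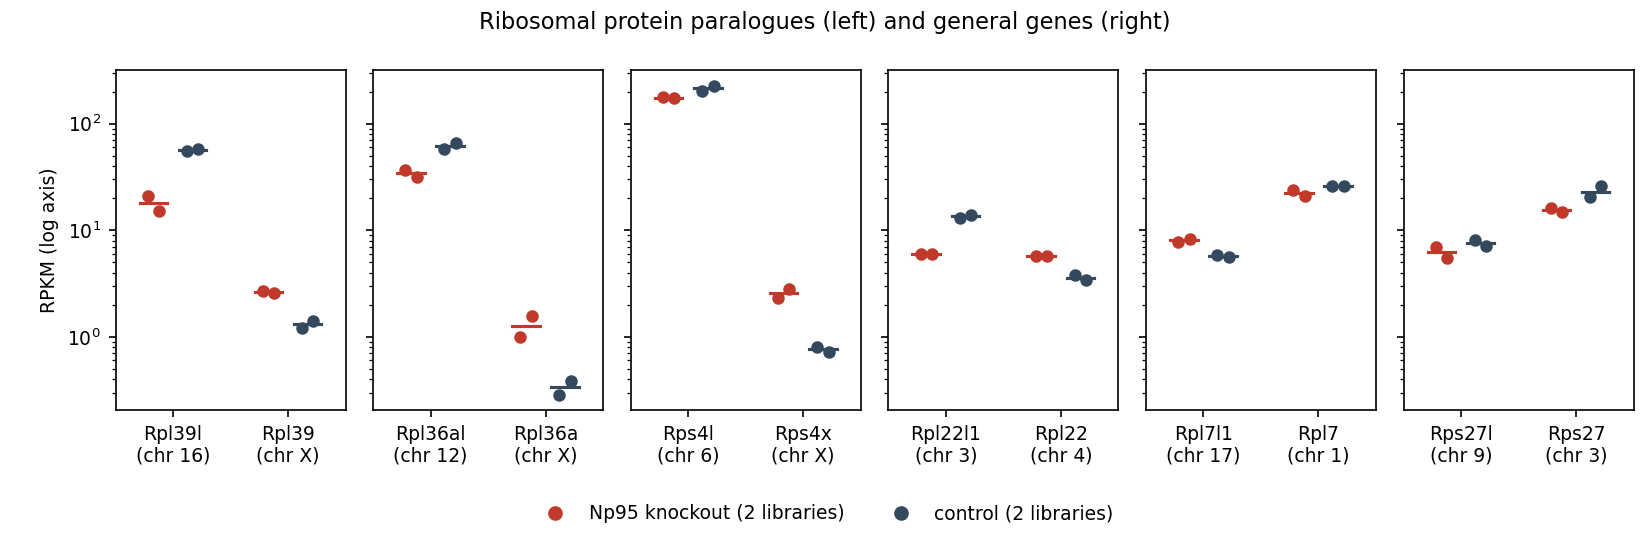
RPKM on a log axis of 6 paralogues and their general genes, with 1 point per library, knockout left of control, and a bar at each group's mean. Rpl39, Rpl36a and Rps4x, all X-linked, were higher in both knockout libraries, while the points of Rpl39l, Rpl36al and Rps4l were lower in both.

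An autosomal pair moved apart in the same way. Rpl22l1, a large subunit paralogue on chromosome 3, had 5.99 and 5.97 RPKM in the knockout, against 13.0 and 13.9 RPKM in the control. This was 2.26-fold lower (log2 fold change -1.05, SE 0.09, limma adjusted p = 0.0014). Rpl22, its general gene on chromosome 4, had 5.77 and 5.76 RPKM in the knockout, against 3.77 and 3.39 RPKM in the control, 1.61-fold higher (log2 fold change 0.56, SE 0.08, limma adjusted p = 0.0029). The log2 ratio of Rpl22l1 to Rpl22 was 0.05 and 0.04 in the knockout libraries, against 1.56 and 1.77 in the control libraries, a difference of -1.62 (exact two-sided permutation p = 0.333, 0.389 adjusted over the 7 pairs). In mice the Rpl22 protein is known to restrain the Rpl22l1 mRNA. The coding sequences of this pair are 66.9% identical and share 0 of 320 windows.

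The remaining paralogues with an l suffix did not follow 1 pattern. Rpl7l1, named for its likeness to Rpl7, had 7.80 and 8.36 RPKM in the knockout, against 5.84 and 5.66 RPKM in the control (log2 fold change 0.43, SE 0.08, limma adjusted p = 0.0071), a call that ended without control replicate 1 (0.054), without control replicate 2 (0.070) and with an equal median (0.079). Its general gene Rpl7 had 23.7 and 21.0 RPKM in the knockout, against 25.9 and 26.1 RPKM in the control, and was not called (log2 fold change -0.21, limma adjusted p = 0.13). The ratio of Rpl7l1 to Rpl7 was higher by 0.64 on the log2 scale in the knockout, with the groups apart (exact two-sided permutation p = 0.333, 0.389 adjusted over the 7 pairs). Rps27l, a paralogue that p53 induces, had 6.90 and 5.48 RPKM in the knockout, against 8.14 and 7.19 RPKM in the control (log2 fold change -0.27, limma adjusted p = 0.11), and its ratio to Rps27 overlapped between groups. Rps27, its general gene of the small subunit, had 16.1 and 14.9 RPKM in the knockout, against 20.4 and 25.8 RPKM in the control (log2 fold change -0.54, SE 0.14, limma adjusted p = 0.019). Its call ended without control replicate 2 (0.13), without knockout replicate 2 (0.067), with libraries scaled to one RPKM total (0.34) and with quantile normalization (0.33). Rpl3l, which replaces Rpl3 in striated muscle, stayed below 1 RPKM in all 4 libraries, at 0.232 and 0.186 RPKM in the knockout and 0.286 and 0.216 RPKM in the control. Its log2 ratio to Rpl3, from RPKM + 1, was lower in the knockout, with a difference of -0.43 and the groups apart (exact two-sided permutation p = 0.333). In the fit without the filter Rpl3l itself was not called (log2 fold change -0.05, limma adjusted p = 0.40). The difference in ratio comes mostly from Rpl3 (log2 fold change 0.38). Rpl32l, a retrocopy counted among the remaining rows, was 1.53-fold lower (log2 fold change -0.61, SE 0.13, limma adjusted p = 0.0084), but this turned to 0.26 with quantile normalization, and the call ended without control replicate 1 (0.098), without control replicate 2 (0.11) and on one RPKM total (0.16). Its general gene Rpl32 was 1.5-fold lower (log2 fold change -0.53, SE 0.11, limma adjusted p = 0.0100), a call that ended without control replicate 2 (0.076) and on one RPKM total (0.25), and their ratio differed by -0.08 with overlapping groups.

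Of the 75 general genes that passed the filter, 9 were higher, 27 lower and 39 not called, so 48.0% were called, where 73.8% of all 9099 genes tested were. By direction this is 12% higher and 36.0% lower, beside 43.3% and 30.5% of all genes tested. At 5 RPKM or more, 6 of 60 general genes were higher and 22 lower, where 31.1% and 47.0% of all genes above that cut were. At 50 RPKM or more, 1 of 7 was higher and 4 were lower, where 12.3% and 76.7% of all genes were. Both cuts are on RPKM that appear to divide by gene span, so they do not match genes by transcript level. The median log2 fold change of the 75 general genes was -0.19, beside 0.14 for all genes. In fold of mean RPKM, 61 of 75 (81.3%) lay within 1.5-fold in either direction, beside 39.6% of all genes tested, and 71 lay within 2-fold. The interquartile range of the log2 fold change was 0.44 for the general genes and 1.05 for all genes.

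The split between higher and lower rested on the scaling between libraries and on single libraries. With an equal RPKM sum 30 general genes were higher and 5 lower, where 58.8% and 18.7% of all genes were. With an equal median the counts were 4 and 45 (34.2% and 39.2% of all genes), and with quantile normalization 18 and 12 (34.7% and 33.4%). Without control replicate 2 the counts were 5 higher and 6 lower (34.1% and 22.9% of all genes), and without control replicate 1 they were 4 and 15 (33.3% and 22.9%). Summed over the 76 general genes, RPKM came to 1609.7 and 1600.8 in the knockout libraries, against 1925.0 and 2049.5 in the control libraries. As a share of each library's RPKM sum this was 2.21% and 2.28% in the knockout, against 2.04% and 2.12% in the control. The class was therefore lower as deposited and higher as a share of the RPKM sum, and no direction of the class as a whole is given.

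**Figure D2:**
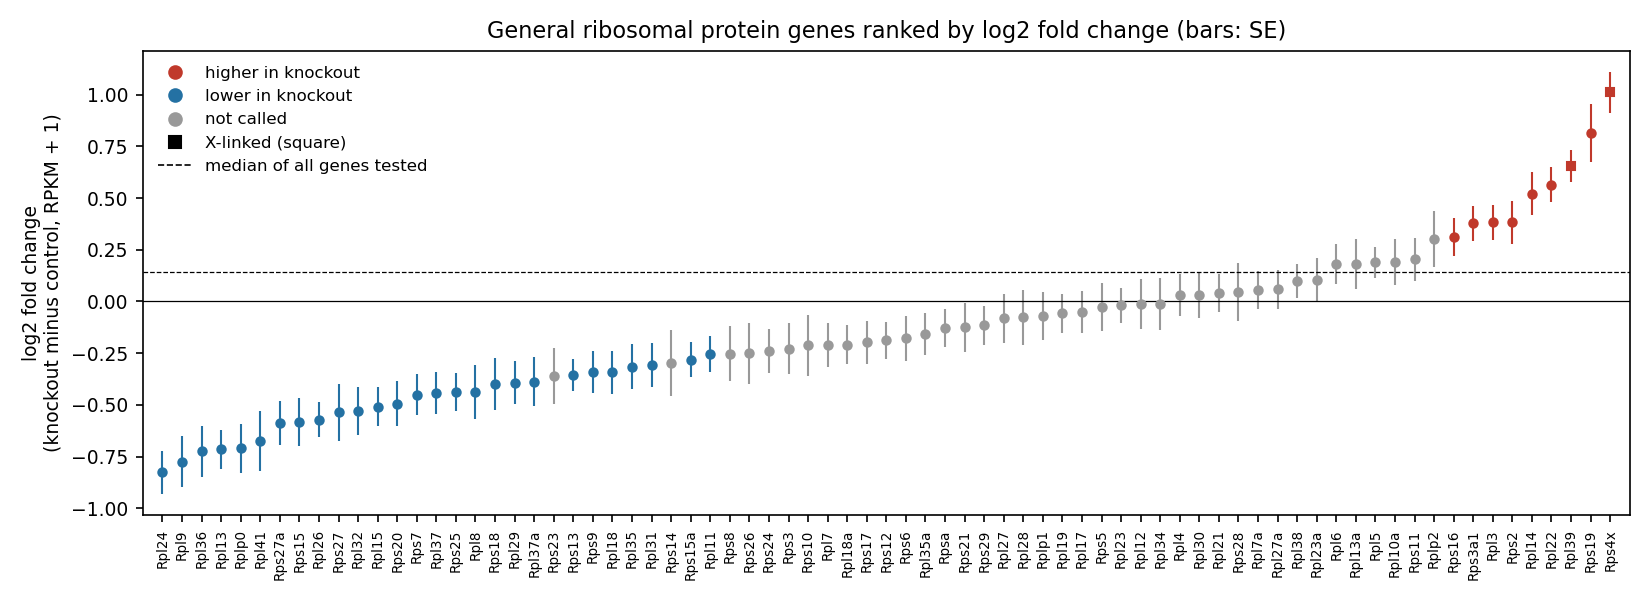
Log2 fold change (knockout minus control, RPKM + 1) of the 75 tested general genes, with SE bars, coloured by call, with X-linked genes as squares and the median of all genes at the dashed line. Most points lie between -0.5 and 0.5, with Rpl24 lowest and Rps4x highest, and many of the lower calls end or turn with an equal RPKM sum or quantile normalization.

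The general genes that were higher included members of both subunits. Rps19, a small subunit protein needed for ribosomal RNA maturation and mutated in human Diamond-Blackfan anaemia, had 3.88 and 4.02 RPKM in the knockout, against 1.47 and 2.21 RPKM in the control. This was 2.15-fold higher (log2 fold change 0.81, SE 0.14, limma adjusted p = 0.0046). Rps19 was the most raised of the autosomal general genes. Its pseudogene row Rps19-ps3 had 5.69 and 6.71 RPKM in the knockout, against 5.54 and 6.84 RPKM in the control, and was not called (limma adjusted p = 0.98). Rpl14, a large subunit protein, was 1.46-fold higher (log2 fold change 0.52, SE 0.10, limma adjusted p = 0.0076). Its processed pseudogene row Rpl14-ps1, which shares 78.3% of its windows with Rpl14, had 296.8 and 305.4 RPKM in the knockout, against 210.5 and 209.9 RPKM in the control, so the 2 rows are not separate evidence. Rps2 (1.31-fold), Rpl3, of the peptidyl transferase region (1.35-fold), and Rps3a1 (1.35-fold) were also called higher, and Rps16 was the remaining call at 1.25-fold. The calls of Rps2, Rpl3, Rps3a1, Rpl14 and Rps16 were lost with an equal median and without control replicate 1 (adjusted p in the last case of 0.092 for Rpl14, 0.14 for Rps2, 0.11 for Rpl3, 0.12 for Rps3a1 and 0.26 for Rps16). Without control replicate 2 those of Rps2 (0.22), Rpl3 (0.064), Rps3a1 (0.065) and Rps16 (0.14) ended too, and with a replicate block those of Rps2 (0.053) and Rps16 (0.054).

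Among the 27 lower general genes, Rpl24 and Rpl9 fell most. Rpl24, which joins the large subunit late in its assembly, had 2.63 and 2.23 RPKM in the knockout, against 5.40 and 4.74 RPKM in the control, 2.09-fold lower (log2 fold change -0.83, SE 0.10, limma adjusted p = 0.0019). Rpl9, a large subunit protein, had 4.16 and 3.18 RPKM in the knockout, against 6.93 and 6.99 RPKM in the control, 1.89-fold lower (log2 fold change -0.78, SE 0.12, limma adjusted p = 0.0035). These 2 kept their call in each alternative in which they were tested, although 81.7% and 93.3% of their windows occur in other annotated genes. Rpl36 and Rpl13 of the large subunit were 1.68-fold lower each, and both calls ended with quantile normalization (adjusted p = 0.14 and 0.065). Rplp0, the base of the acidic stalk that binds translation factors, had 77.7 and 74.7 RPKM in the knockout, against 121.0 and 129.8 RPKM in the control, 1.65-fold lower, which turned to a log2 fold change of 0.28 with quantile normalization. Without control replicate 2 its call ended (adjusted p = 0.062).

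Rpl41, which encodes a very short peptide of the ribosome, had the highest RPKM of the general genes as deposited. Per kilobase of transcript, Rpl8 stood at an estimated 488.2 and 470.8 in the knockout, against 397.4 and 420.2 for Rpl41. In the control these estimates were 644.5 and 655.4 for Rpl8 and 622.8 and 686.9 for Rpl41. In RPKM, Rpl41 stood at 218.4 and 230.9 in the knockout, against 342.3 and 377.5 in the control, 1.60-fold lower (log2 fold change -0.68, SE 0.14, limma adjusted p = 0.0096). With quantile normalization it turned to a log2 fold change of 0.44, and its call ended without control replicate 1 (0.079), without control replicate 2 (0.13), on one RPKM total (0.11) and without the filter (0.056). Rps27a, which encodes a fusion of ubiquitin and a small subunit protein, was 1.54-fold lower, and Rps15, of the small subunit, was 1.51-fold lower. Scaling to the same RPKM total ended both calls (0.13 for Rps27a and 0.18 for Rps15), as quantile normalization did for Rps27a (0.081), and that of Rps15 also ended without control replicate 2 (0.092) and its direction turned with quantile normalization. The other 19 lower genes were 1.24-fold to 1.56-fold lower. Of 44 tested large subunit genes 4 were higher and 17 lower, and of 31 small subunit genes 5 were higher and 10 lower. Among all genes tested 43.3% were higher and 30.5% lower, and the split of the general genes changed with the scaling between libraries.

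Placement of reads limits these values. The general genes shared 0.0% to 98.6% of their 50-base windows with other annotated transcripts, and 39 of 76 shared at least 50%. Of the 38 tested genes in that part, 4 were higher and 14 lower, and of the 37 below it, 5 were higher and 13 lower. Among all genes tested 43.3% were higher and 30.5% lower. Rps27 and Rps27rt, whose coding sequences are identical, held values within 0.09% of each other in every library, and Rpl34 and Rpl34-ps1 within 1.56%, so neither pair is 2 measurements. The aligner named in the processing notes, Bowtie2, does not split reads over introns, and the part of this in the values was not tested. Of the 9 remaining rows 6 were lower, 1 was higher and 2 were not called, beside 30.5% lower and 43.3% higher among all genes tested. Of the 6 lower rows 1 was Rps19bp1, which is not a ribosomal protein.

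**Figure D3:**
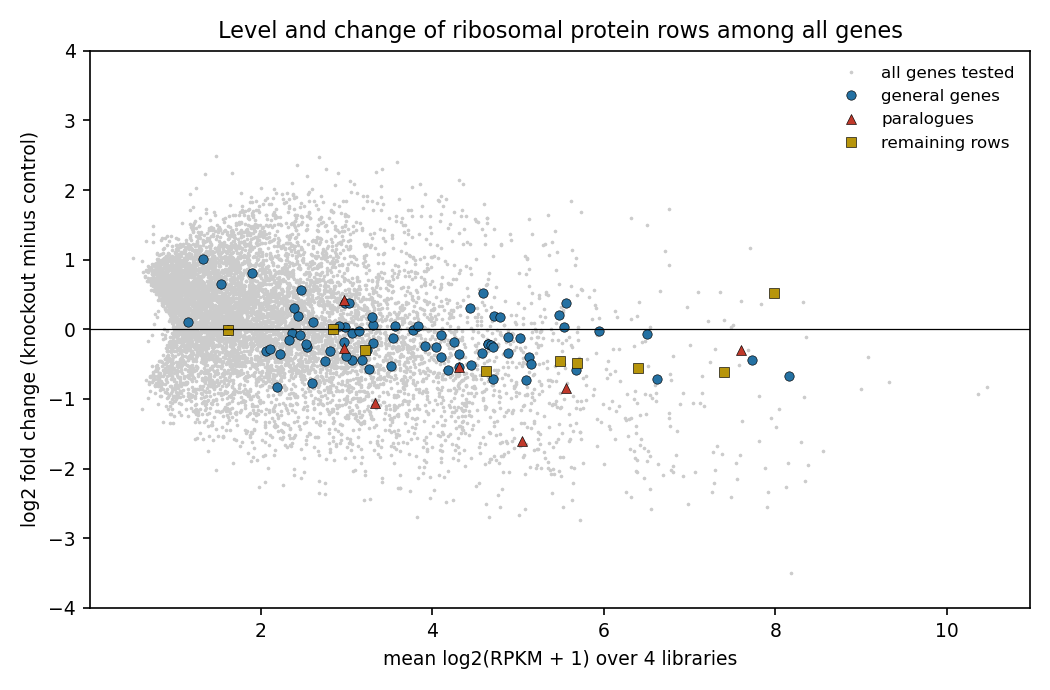
Log2 fold change (knockout minus control) against mean log2(RPKM + 1) over 4 libraries, for all 9099 tested genes in grey and for the general genes, paralogues and remaining rows in colour. The general genes spread less than all genes (interquartile range 0.44 beside 1.05). Of the 7 general genes at 50 RPKM or more 4 were called lower, where 76.7% of all genes were. RPKM are as deposited and do not match genes by transcript level. The paralogue triangles of Rpl39l, Rpl22l1 and Rpl36al lie lowest among the ribosomal protein rows.

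Markers of other testis cells and of prophase stages also moved. Their counts stand beside 43.3% called higher and 30.5% called lower among all 9099 genes tested. All 12 tested Sertoli cell markers were higher in the knockout, where the list summed to 286.0 and 356.1 RPKM, against 98.6 and 119.6 RPKM in the control. Of 6 tested Leydig cell markers 5 were higher, with sums of 60.4 and 50.3 RPKM in the knockout and 19.1 and 19.0 RPKM in the control, and all 4 tested macrophage markers were higher. Clu of Sertoli cells, Insl3 of Leydig cells and C1qc of macrophages, each among the 2 most abundant of its list, were 3.29-fold, 3.13-fold and 3.04-fold higher. Inha, Star and C1qa, the other of the 2 in each list, were 3.11-fold, 1.96-fold and 2.48-fold higher. The 1 tested peritubular marker, Tagln, was higher, and the 3 tested blood markers were not called. Of the 7 tested pachytene markers all were lower, with sums of 555.8 and 440.9 RPKM in the knockout and 1198.0 and 1179.0 RPKM in the control, and 5 of 6 early prophase markers were higher. Of 4 spermatogonial markers 3 were higher and 1, Id4, was lower, and both tested spermatid markers, Acr and Tssk1, were lower. Ldhc, the testis lactate dehydrogenase, was 4.23-fold lower and Hspa2, a heat shock protein of spermatocytes, 1.80-fold lower, while Stra8, the meiotic entry factor, was 3.36-fold higher and Sycp3, of the synaptonemal complex, was not called. No marker of these lists was at 0 in all 4 libraries. In such bulk libraries fewer cells of a type and less RNA per cell cannot be told apart, and the part of cell composition in the changes of the ribosomal protein genes was not tested. Uhrf1 itself had 1.87 and 1.48 RPKM in the libraries labelled as knockout, against 3.11 and 3.29 RPKM in the control libraries.

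Ribosomal proteins are also encoded under other symbols. Fau, whose product is cleaved into a ubiquitin-like and a small subunit protein, was 1.60-fold lower (log2 fold change -0.66, SE 0.14, limma adjusted p = 0.0089). Gnb2l1, the small subunit scaffold Rack1, was not called.

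The counts of genes that build ribosomes stand beside 43.3% higher and 30.5% lower among all genes tested, where more were also higher than lower. Of 67 tested ribosome biogenesis genes 32 were higher, 7 lower and 28 not called, with a median log2 fold change of 0.21 beside 0.14 for all genes. This is 47.8% higher, near the 43.3% of all genes. Ncl, the nucleolar protein nucleolin, had 29.1 and 32.6 RPKM in the knockout, against 7.93 and 7.63 RPKM in the control, 3.97-fold higher (log2 fold change 1.86, SE 0.10, limma adjusted p = 0.0014). Nop56, of the box C/D guide particle, and Heatr1, of the small subunit processome, were 2.49-fold and 2.31-fold higher. Dkc1, the X-linked pseudouridine synthase of box H/ACA particles, was 4.59-fold higher and was below 1 RPKM in both control libraries. Of 14 RNA polymerase I genes 7 were higher and 7 lower. Ubtf, the factor that opens ribosomal RNA genes, was 3.84-fold higher, and the initiation factor gene Rrn3 was 2.04-fold higher. The polymerase subunit genes Polr1c and Polr1d were 1.89-fold and 2.40-fold lower. Of 21 genes for ribosomal protein chaperones, export and release, 9 were higher and 4 lower. Tsr2, the X-linked chaperone of Rps26, was 3.05-fold higher, the importin gene Ipo7 2.13-fold, and Heatr3 and Efl1 2.65-fold and 5.01-fold, the last 2 from below 1 RPKM in both control libraries.

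Translation factors and regulators also split, and their counts stand beside 43.3% higher and 30.5% lower among all genes tested. Of 33 initiation factor genes 8 were higher, 14 lower and 11 not called. The sex-linked Eif1ax and Eif2s3y were 3.30-fold and 3.72-fold higher, and Eif4b was 1.90-fold higher, while Eif3k was 2.33-fold lower. Of 8 elongation factor genes 1 was higher and 2 were lower. Eif5a had 87.7 and 86.1 RPKM in the knockout, against 129.2 and 143.4 RPKM in the control, 1.57-fold lower, and its paralogue Eif5a2 was 1.52-fold higher. Eef1b2 was 1.23-fold lower. In the list of genes with the same pyrimidine tract and of mTOR signalling, 11 of 18 were higher and 5 lower. Mycn, a transcription factor that drives ribosome production, was 4.73-fold higher from below 1 RPKM in both control libraries, Eif4ebp3 2.51-fold and Larp4 2.22-fold. Tsc2, of the complex that restrains mTOR, was 2.61-fold higher and was likewise below 1 RPKM in both control libraries. Of 8 host genes of small nucleolar RNAs, Snhg3 was 3.59-fold lower, and Snhg1 and Snhg6 were 1.52-fold and 1.33-fold higher.

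**Figure D4:**
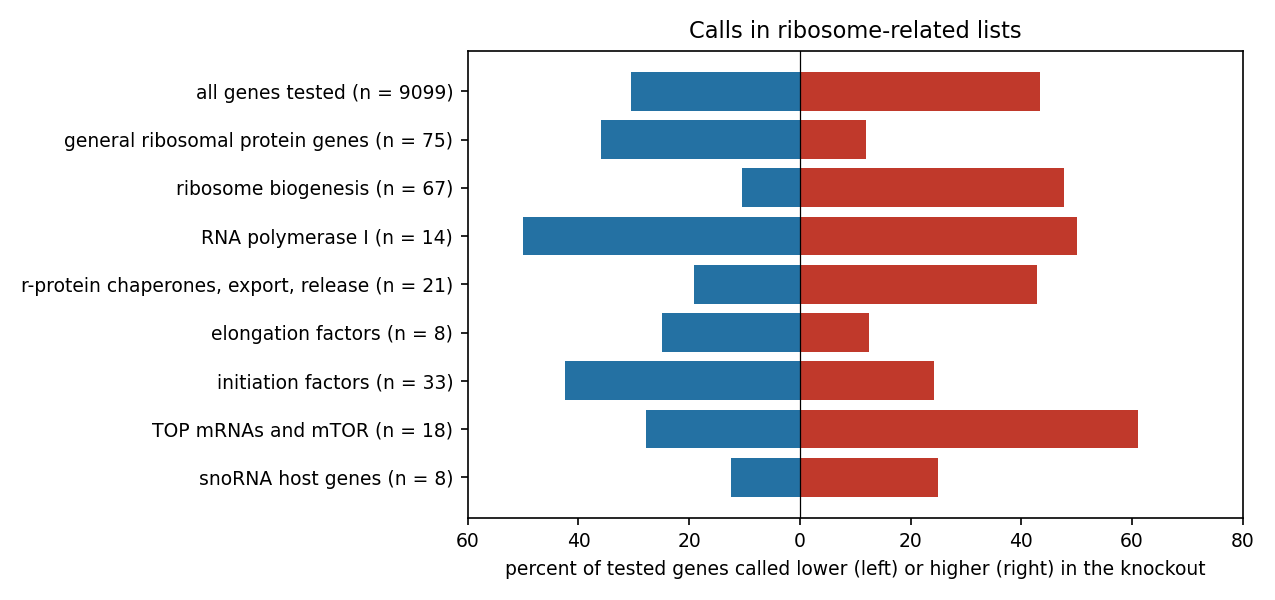
Percent of tested genes called lower (left of 0) or higher (right of 0) in the knockout for all genes and 8 ribosome-related lists, with the number tested beside each name. The general ribosomal protein genes had 12% higher and 36.0% lower calls as deposited, a split that changed with the scaling between libraries, and all genes had 43.3% and 30.5%.

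The promoters of the Rpl39l and Rpl39 pair are shown since the 2 genes moved apart. The 250 bases before the RefSeq start (GRCm38.p6) are printed 5′ to 3′ on the gene's strand, with the motif CCGGAAG in capitals, the core recognised by GABP and related ETS factors. They lie at chr16:10169978-10170227 on the plus strand for Rpl39l and at chrX:37085223-37085472 on the minus strand for Rpl39.
Rpl39l: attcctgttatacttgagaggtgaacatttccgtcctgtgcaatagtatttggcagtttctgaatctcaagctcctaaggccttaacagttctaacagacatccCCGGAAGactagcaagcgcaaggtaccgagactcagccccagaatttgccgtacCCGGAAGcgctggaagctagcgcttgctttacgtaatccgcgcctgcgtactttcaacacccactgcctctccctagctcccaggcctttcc
Rpl39: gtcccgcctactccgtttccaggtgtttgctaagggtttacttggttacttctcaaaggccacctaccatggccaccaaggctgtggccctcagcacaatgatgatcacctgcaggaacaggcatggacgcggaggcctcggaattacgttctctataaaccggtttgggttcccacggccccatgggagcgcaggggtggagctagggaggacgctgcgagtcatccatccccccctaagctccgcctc
Each window holds 12 CpG dinucleotides. On either strand, CCGGAAG occurred 2 times in the Rpl39l window and was not found in the Rpl39 window. Of the 56 general genes with an entry, 32.1% held it, beside 7.1% of 27025 genes with one, and 1 of 8 paralogue or retrocopy promoters did. GGGCGG, the SP1 core, was in 44.6% of general promoters and 32.9% of all, TGACGT, the core of cAMP response elements, in 19.6% and 6.6%, and the E-box CACGTG in 7.1% and 6.0%. The motifs do not overlap in these 2 windows. The median number of CpG dinucleotides was 18 in general promoters and 6 in all. These are matches of letters, and the libraries hold no measurement of methylation or binding.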

How the data were processed

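The deposited table gives RPKM for 24444 rows in 4 libraries, made by the authors with a poly(A) module and an unstranded 50-bp paired-end kit, per the labels' protocols. Bowtie2 and mm9 are named in the submitters' processing notes. No counter or annotation is named in the sources used here. Steps between low RPKM values, taking RefSeq gene spans, put the depth near 11110000 and 4810000 steps (reads or pairs) for knockout replicates 1 and 2 and 5820000 and 12810000 for control replicates 1 and 2. At these values 43.8% to 46.5% of low values lay within 0.05 of a whole multiple (chance gives 10%), so counts were not recovered and no count test was run.

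Groups came from the titles. Left out were 27 date-named rows and 29 lower rows of repeated symbols. Genes with 1 RPKM or more in at least 2 libraries (9099) were compared as log2(RPKM + 1) with limma 3.58.1 (R 4.3.3), two-sided, with a mean-variance trend, Benjamini-Hochberg adjustment over all tested genes and a threshold of 0.05. On simulated data for this comparison (9099 genes) the fit called 65 of 100 genes changed by 1 log2 unit, 16 of 100 changed by 0.5, and 1 of 8899 unchanged. In the data 73.8% of genes were called, a far larger share than was changed in the simulation. Its counts therefore do not give the power or the rate of false calls of the fit to the data. The 7 pairs were compared by an exact permutation test. P-values measure the spread between libraries, which may be technical. The members, lists and tests were chosen with earlier results of these data known. Genes were named by rule: Uhrf1, X-linked members, paralogues with an l suffix and their general genes, and the extremes of level. The rule added the 8 called general genes per direction that changed most and up to 4 called genes with the smallest p per pathway list. It also took the 2 most abundant per marker list, of which not all are named above. Windows of 50 bases were searched in GENCODE M21 transcripts. Coding sequences were aligned with Biopython 1.88. The comparison of pseudogene and retrocopy rows with their general genes was added after their values were seen. A gene that the naming rule selects is not reported here.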

Additional observations from a re-analysis of the deposited data

How the results depend on the processing

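Of 26 named members that were tested, 8 kept direction and call in every alternative fit that tested them: Rpl39, Rps4x, Rpl39l, Rpl22l1, Rpl22, Rps19, Rpl24 and Rpl9. All of these but Rpl39l missed 1 or both of the higher filters, at 5 and 50 RPKM. The minimum change of 1.5-fold is not counted among these fits, and Rpl22 (0.56) did not reach it on log2(RPKM + 1). All pair differences kept their direction except Rps27l and Rps27, whose difference was -0.10 with quantile normalization. The size moved by over 1.5 times for Rps4l and Rps4x (-0.11) and Rpl7l1 and Rpl7 (0.21) with quantile normalization, for Rpl36al and Rpl36a (-0.71 with quantile normalization, -2.49 with a pseudocount of 0.1), for Rpl3l and Rpl3 (-0.72 with an equal RPKM sum, -0.25 with an equal median) and for Rps27l and Rps27 (0.02 to 0.51 with a library left out). General genes called higher and lower numbered 30 and 5 with an equal RPKM sum, 4 and 45 with an equal median, 18 and 12 with quantile normalization, 1 and 4 of 7 at 50 RPKM, and 3 and 7 with a minimum change of 1.5-fold. With each library left out in turn they ran from 4 to 11 higher and 6 to 31 lower. All genes called numbered 1698 lower with an equal RPKM sum, 7370 higher without a filter, 1080 higher and 1629 lower at 5 RPKM, 37 and 231 at 50 RPKM, and 2402 and 1763 with the minimum change. The median of the general genes minus that of all genes, -0.33, was 0.041 with quantile normalization, 0.013 at 5 RPKM and 0.72 at 50 RPKM. Directions turned with an equal RPKM sum for Rps4l (0.12), Rps27l (0.089) and Rpl7 (0.19), and with quantile normalization for Rps4l (0.63), Rpl7 (0.25), Rpl32l (0.26), Rplp0 (0.28), Rpl41 (0.44) and Rps15 (0.035); the cause was not tested. Of all 36 general genes called, 7 turned with an equal RPKM sum, at 0.009 to 0.09 (Rpl11, Rpl18, Rpl29, Rpl31, Rpl35, Rps15a and Rps9), and 8 with quantile normalization, where Rpl8 (0.50) was called higher, as Rpl41 was, and Rpl18, Rpl29, Rps9 and Rps20 stood at 0.054 to 0.15.

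Library scaling moved the median of all genes to 0.44 with an equal RPKM sum, -0.05 with an equal median and 0.01 with quantile normalization. The replicate numbers are not said to pair libraries, and the deviations of libraries numbered 1 correlated at 0.11 over genes. With a replicate block 7 general genes were higher and 26 lower, beside 3868 and 2721 of all 9099 genes tested. Depth limits Rpl36a, Rpl39 and Rps4x, with about 4, 19 and 21 steps in control replicate 1.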
